A study of Homo sapiens with 52 samples.

Results

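PAX3 and FOXO1 are the genes joined in PAX3-FOXO1, the fusion oncogene of fusion-positive rhabdomyosarcoma, and they are described here beside PAX7, FOXO3 and FOXO4, relatives that the fusion does not contain. The genes were taken by name from the expression tables, 5 of 27043 genes, and their values were read in all 52 samples. The question was whether PAX3 and FOXO1 move together when cells are treated with epigenetic probes, and whether the relatives move with them.

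RNA-seq was performed on cultured fusion-positive rhabdomyosarcoma cells treated with chemical probes of chromatin regulators. The screen held 44 samples collected after 6 h: 20 compounds at a high and a low dose with 1 sample per dose, and 4 DMSO samples, 2 at 0.1% and 2 at 0.2%. Doses were 10 and 1 µM, except for Cpd50, GSKJ4 and LAQ824 at 5 and 0.5 µM. A further 8 samples comprised N1302 at 1 µM and its DMSO control at 6 h, and entinostat at 1 µM and DMSO at 1, 6 and 24 h, with 1 sample per condition. Of the 20 screen compounds, 7 were placed on the histone acetylation axis. These were the HDAC inhibitors LAQ824, MC1568, Merck60, OJI-1 and WT161 and the bromodomain inhibitors bromosporin and SGC-CBP30. A further 11 were placed on the methylation axis (Cpd50, GSKJ4, EZ-005, UNC1999, UNC0638, UNC-1215, GSKLSD1, LSD-519, LSD-690, PFI-2 and SGC0946). PFI-3, which also targets bromodomains, and the MEK inhibitor trametinib were placed on neither axis. N1302 and entinostat are also HDAC inhibitors.

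All samples carry the cell line label RH4, whereas the titles of the 44 screen samples read RH41, so the 2 sets were never compared by a test. Nothing in the labels says that samples of one condition came from separate cultures, and p-values then measure only the spread between these samples, which may be technical. Libraries held 5737939 to 41415071 reads. Markers of skeletal muscle summed to between 2690 and 2750 TPM in screen DMSO, with 7 of 8 markers at 1 TPM or more and MYF6 below. Of 6 markers of fusion-positive rhabdomyosarcoma 5 reached 1 TPM and CDH3 did not, and epithelial markers summed to at most 0.669 TPM. Fibroblast markers summed to between 2130 and 2180 TPM in the same samples. Screen libraries came from 4 flow cells, and the DMSO samples shared a flow cell only with Cpd50, GSKJ4, LAQ824 and MC1568.

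PAX3 and PAX7 encode paired-box factors of muscle progenitors. FOXO1, FOXO3 and FOXO4 encode forkhead factors that are held in the cytoplasm when AKT phosphorylates them and that activate genes of growth arrest, atrophy and stress resistance when AKT is inactive. In fusion-positive rhabdomyosarcoma the fusion transcript is made from the PAX3 promoter and runs from the DNA-binding domains of PAX3 into the transactivation domain of FOXO1. A cell with the fusion can therefore hold intact PAX3, intact FOXO1 and fusion transcripts, which all add to these gene-level values. Gene-level TPM cannot separate them, and which of them were present was not measured.

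The sequences at which the fusion joins its parents show which part of each gene enters it. The usual junction lies between exon 7 of PAX3 and exon 2 of FOXO1. Shown are the 60 bases on each side, read from GRCh37 on the coding strand with the 20 bases next to the junction in capitals, for exon 7 of PAX3 (chr2:223084859-223084918, minus strand) and exon 2 of FOXO1 (chr13:41134938-41134997, minus strand).
PAX3, end of exon 7: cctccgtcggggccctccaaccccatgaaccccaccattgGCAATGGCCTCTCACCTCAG
FOXO1, start of exon 2: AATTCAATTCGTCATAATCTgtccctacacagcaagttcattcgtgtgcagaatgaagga

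The relatives have matching exons. Exon 7 of PAX7 (chr1:19029731-19029790, plus strand) was identical to PAX3 at 30 of 60 bases compared from the junction without gaps. The stretch ccctccaacc lies further along in the PAX7 sequence than in that of PAX3, so this count understates their likeness. The start of exon 2 was identical to FOXO1 at 43 of 60 bases in FOXO3 (chr6:108984658-108984717, plus strand) and at 43 of 60 in FOXO4 (chrX:70320534-70320593, plus strand). These exons are shown because a short read from them can be told apart from its fused relative at the differing bases.
PAX7, end of exon 7: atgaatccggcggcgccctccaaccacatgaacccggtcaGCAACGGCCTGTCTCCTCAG
FOXO3, start of exon 2: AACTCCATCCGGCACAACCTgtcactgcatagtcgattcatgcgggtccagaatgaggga
FOXO4, start of exon 2: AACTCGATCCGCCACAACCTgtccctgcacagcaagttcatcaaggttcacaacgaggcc

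The fusion takes unequal parts of its parents. Exons 1 to 7 make up 1556 of the 3359 bases of the canonical PAX3 transcript, 46.3%, whereas exons 2 and 3 make up 4720 of the 5779 bases of FOXO1, 81.7%. A transcript with only these exons would draw 75.2% of its bases from FOXO1. Reads from one such transcript would thus add to both gene values.

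The promoters differ in composition. The 250 bases before the start of PAX3 (RefSeq, GRCh38.p14, chr2:222298999-222299248, minus strand) contained 64.0% G and C and 17 CpG sites. The matching window of FOXO1 (chr13:40666642-40666891, minus strand) contained 67.2% G and C and 27 CpG sites, against a median of 58.0% and 11 sites over 34788 promoter windows. Both are shown because the fusion uses the first and not the second, with each GC box (GGGCGG on either strand) in capitals.
PAX3 promoter: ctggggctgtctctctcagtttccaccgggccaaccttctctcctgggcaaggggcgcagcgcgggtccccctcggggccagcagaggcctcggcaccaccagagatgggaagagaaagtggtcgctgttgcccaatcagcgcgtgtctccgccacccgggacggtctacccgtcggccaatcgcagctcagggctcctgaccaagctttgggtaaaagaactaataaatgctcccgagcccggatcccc
FOXO1 promoter: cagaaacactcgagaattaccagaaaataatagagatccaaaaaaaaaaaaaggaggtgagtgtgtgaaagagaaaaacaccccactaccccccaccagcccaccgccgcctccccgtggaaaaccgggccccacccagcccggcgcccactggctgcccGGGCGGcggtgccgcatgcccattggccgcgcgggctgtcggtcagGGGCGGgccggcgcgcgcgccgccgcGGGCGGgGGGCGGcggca

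The FOXO1 window held 4 GC boxes and the PAX3 window 0, and 42.6% of all windows held at least 1. Neither window held the FOXO motif GTAAACA, found in 2.98% of windows, or an E-box (CANNTG), found in 61.8%, on either strand.

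In solvent, FOXO1 had the higher TPM of the fused pair. PAX3 (hg19 chr2:223064606-223163715) stood at 38.6 and 39.4 TPM in 0.2% DMSO and at 43.1 and 43.9 TPM in 0.1% DMSO. FOXO1 (chr13:41129801-41240734) stood at 84.8, 83.2, 80.5 and 85.5 TPM in the same order. DMSO samples of one concentration differed by no more than counting noise once the flow cell was removed (1.02 times that noise over 10378 genes) and were counted as 1 sample in means and SDs, although the limma fits kept all 4. The mean was 41.2 ± 3.15 TPM for PAX3 and 83.5 ± 0.733 TPM for FOXO1 (SD, n = 2). In TPM, which is scaled by transcript length, FOXO1 stood at 1.87 to 2.2 times PAX3. The fusion exons cover 81.7% of the FOXO1 transcript and 46.3% of PAX3, so fusion reads alone would give FOXO1 the higher value. This ratio is therefore not one of transcript numbers, and the part of the fusion in it was not tested.

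The relatives were expressed at lower levels. FOXO3 (chr6:108881026-109005971) averaged 34.2 ± 0.41 TPM in screen DMSO, FOXO4 (chrX:70315999-70323384) 8.18 ± 0.412 TPM and PAX7 (chr1:18957500-19075360) 7.85 ± 0.569 TPM (SD, n = 2). The order from FOXO1 through PAX3 and FOXO3 to FOXO4 and PAX7 held in each DMSO sample except that FOXO4 and PAX7 overlapped, at 7.76 to 9.14 and 7.23 to 8.69 TPM. FOXO3 shares near-identical sequence with FOXO3B on chromosome 17, which was listed at 15.9 TPM, so how reads matching both were counted is uncertain. The 5′ end of PAX3 overlaps that of CCDC140 (chr2:223162866-223169936, 3.32 TPM), and strand was not stated for the counting.

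Raising DMSO from 0.1% to 0.2% called no gene at an adjusted p under 0.05 (limma, Benjamini-Hochberg over 16359 genes, background 0.0%; 1548 genes had an unadjusted p under 0.05). PAX3 was 0.15 ± 0.02 lower at 0.2% on the log2(TPM + 1) scale, a scale used for all changes below that understates those of low genes (change -0.15, adjusted p = 0.511). Each dose was set against the DMSO of its own concentration.

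The 40 treated screen samples spread more widely than DMSO for each gene. PAX3 ranged from 12.6 to 54.8 TPM with a median of 37.6, and FOXO1 from 26.4 to 127 TPM with a median of 84.3. Among the relatives, FOXO3 ranged from 15.3 to 61.1 TPM (median 34.5), FOXO4 from 3.72 to 24.0 TPM (median 9.46) and PAX7 from 1.49 to 15.2 TPM (median 9.45). The lowest values of PAX3, FOXO1, PAX7 and FOXO3 all came from LAQ824 at 0.5 µM. Averaged over doses, PAX3 was below DMSO for 15 of 20 compounds and FOXO1 for 9.

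**Figure D1:**
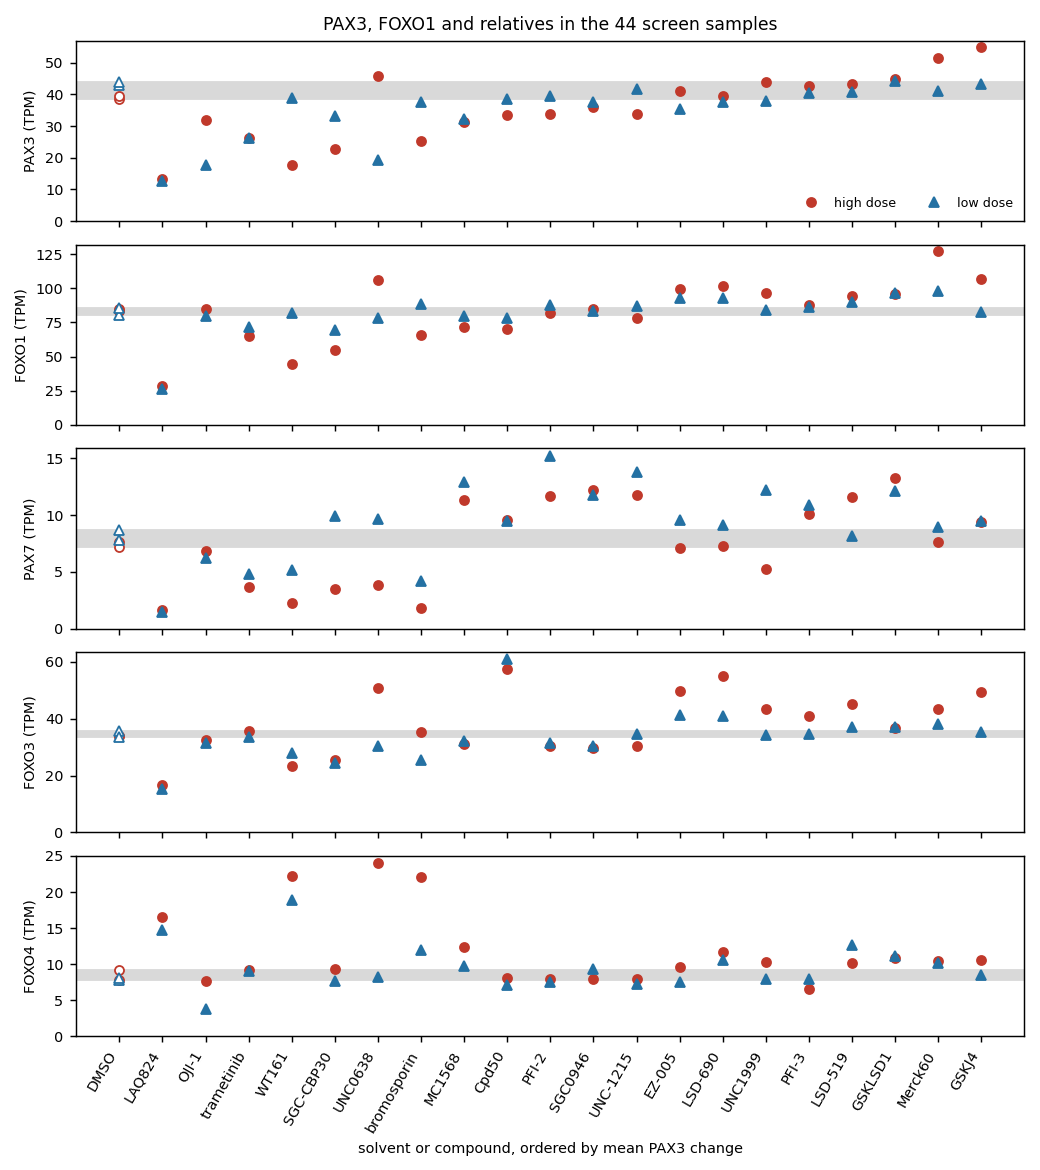
TPM of the 5 genes (vertical axes) in the 44 screen samples, by compound ordered from the lowest to the highest mean PAX3 change. Circles are high doses and triangles low doses, open symbols are DMSO at 0.2% (circles) and 0.1% (triangles), and the grey band spans the 4 DMSO samples. Both LAQ824 samples lie under every DMSO sample for PAX3, FOXO1, PAX7 and FOXO3 and above them for FOXO4.

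LAQ824, a pan-HDAC inhibitor, lowered both fused genes by about the same amount. PAX3 was measured at 13.4 TPM at 5 µM and 12.6 TPM at 0.5 µM, and FOXO1 at 28.3 and 26.4 TPM. Neither gene overlapped its DMSO range at either dose. PAX3 fell by 1.59 ± 0.26 on the log2 scale (SE, limma over both doses, adjusted p = 6.88e-06) and FOXO1 by 1.58 ± 0.16 (adjusted p = 6.45e-09). The compound moved much of the transcriptome, with 60.5% of genes called.

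The relatives did not all follow. PAX7, at 1.64 and 1.49 TPM, fell by 1.79 ± 0.31 (adjusted p = 2.19e-05), and FOXO3, at 16.7 and 15.3 TPM, fell by 1.05 ± 0.16 (adjusted p = 3.06e-06). FOXO4 rose to 16.6 and 14.7 TPM, a change of 0.86 ± 0.26 (adjusted p = 0.00569). In bulk samples fewer cells of a type and less RNA per cell cannot be told apart.

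WT161, described as an HDAC6 inhibitor, separated its doses. At 10 µM PAX3 stood at 17.7 TPM and FOXO1 at 44.7 TPM, below every DMSO sample. At 1 µM PAX3 stood at 38.9 TPM and FOXO1 at 81.7 TPM, within the range of the 4 DMSO samples, although PAX3 was below both samples at 0.1%. Over both doses FOXO1 fell by 0.46 ± 0.16 (adjusted p = 0.023), a call lost at 1 µM alone, where the change was -0.02 (adjusted p = 0.98), and with the DMSO samples of one concentration averaged (adjusted p = 0.0713). The PAX3 change was -0.63 ± 0.26 (adjusted p = 0.0508), just above the threshold. At 10 µM alone the changes were -1.10 ± 0.32 for PAX3 (adjusted p = 0.009) and -0.89 ± 0.18 for FOXO1 (adjusted p = 0.000387). These rest on 1 sample, which is assumed to vary like the rest of the screen. WT161 called 41.8% of genes over both doses.

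Under WT161 the relatives split as under LAQ824. PAX7, at 2.22 TPM at 10 µM and 5.14 TPM at 1 µM, fell by 0.99 ± 0.31 (adjusted p = 0.0126). FOXO4 rose to 22.2 and 18.9 TPM, a change of 1.23 ± 0.26 (adjusted p = 0.000427). FOXO3, at 23.5 and 27.8 TPM, fell by 0.41 ± 0.16 (adjusted p = 0.043). That call was lost in each of the 4 fits without one DMSO sample, with adjusted p of 0.0596 to 0.0766, with median-ratio scaling (adjusted p = 0.0615) and with the DMSO samples of one concentration averaged (adjusted p = 0.111).

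Under the bromodomain inhibitors no change of the fused pair passed. Bromosporin, which targets many bromodomains, left PAX3 at 25.3 TPM at 10 µM and 37.5 TPM at 1 µM and FOXO1 at 66.0 and 88.4 TPM. The PAX3 change was -0.41 ± 0.26 (adjusted p = 0.204) and the FOXO1 change -0.13 ± 0.16 (adjusted p = 0.553). PAX7 fell to 1.84 and 4.2 TPM (-1.20 ± 0.31, adjusted p = 0.00283) and FOXO4 rose to 22.1 and 12 TPM (0.92 ± 0.26, adjusted p = 0.00505), where 46.0% of genes were called. SGC-CBP30, an inhibitor of the CREBBP and EP300 bromodomains, gave PAX3 values of 22.9 and 33.1 TPM and FOXO1 values of 54.9 and 69.2 TPM. All 4 values were below the DMSO range, but the changes of -0.56 ± 0.26 (adjusted p = 0.175) and -0.43 ± 0.16 (adjusted p = 0.0874) did not pass, against 9.84% of genes called.

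Other calls fell on relatives alone. FOXO3 rose to 57.5 and 61.1 TPM under Cpd50, an inhibitor of histone demethylases (0.77 ± 0.16, adjusted p = 0.00145; 11% of genes called), while PAX3 and FOXO1 changed by -0.19 ± 0.26 and -0.17 ± 0.16 (adjusted p = 0.756 and 0.62). FOXO4 stood at 24.0 TPM at 10 µM and 8.23 TPM at 1 µM under the G9a and GLP inhibitor UNC0638 (0.73 ± 0.26, adjusted p = 0.0397; 25.2% called). At 1 µM alone its change was 0.05 (adjusted p = 0.992), and with averaged DMSO samples the call was lost (adjusted p = 0.118). In each of 3 of the 4 fits that left out one DMSO sample it did not pass, the exception being the fit without replicate 1 at 0.2%.

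Over the screen, 13 of the 100 pairs of gene and compound were called, 8 down and 5 up, a share near the 12.7% called over all pairs of gene and compound. PAX3 was called for 1 compound, FOXO1 for 2, PAX7 for 3, FOXO3 for 3 and FOXO4 for 4. FOXO4 rose in all 4 of its calls and PAX7 fell in all 3 of its calls. Fitting each compound only with the 4 DMSO samples, with the spread taken from those samples alone, gave 38 calls. Those 38 calls included falls of PAX3 under LAQ824, MC1568 and trametinib. The share of all genes called in these fits is not given, so the 38 calls are not a result about these genes.

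At the high dose of some compounds both fused genes stood above every DMSO sample. Merck60, an inhibitor of HDAC1 and HDAC2, gave 51.5 TPM of PAX3 and 127 TPM of FOXO1 at 10 µM. The demethylase inhibitor GSKJ4 gave 54.8 and 107 TPM at 5 µM, UNC0638 gave 45.8 and 106 TPM at 10 µM, and the LSD1 inhibitor GSKLSD1 gave 44.8 and 95.9 TPM at 10 µM. GSKLSD1 was also above at 1 µM, with 44.2 and 96.9 TPM. None of these high-dose changes passed when the high dose was tested alone. For Merck60 they were 0.39 ± 0.37 (adjusted p = 0.876) and 0.59 ± 0.23 (adjusted p = 0.383), for GSKJ4 0.48 ± 0.37 and 0.34 ± 0.23, for UNC0638 0.23 ± 0.31 and 0.33 ± 0.22, and for GSKLSD1 0.20 ± 0.38 and 0.19 ± 0.24. Trametinib gave 26.1 and 26.2 TPM of PAX3, both below DMSO, and 65.2 and 71.3 TPM of FOXO1, with changes of -0.63 ± 0.26 (adjusted p = 0.165) and -0.29 ± 0.16 (adjusted p = 0.375).

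Across compounds the changes of PAX3 and FOXO1 tracked each other. Over the means of the doses of 20 compounds, Pearson's r was 0.89 (two-sided permutation p = 2e-05, adjusted over 10 pairs 0.0002) and Spearman's rho 0.82 (permutation p = 1e-05, the smallest that 100000 resamples can give, adjusted 0.0001). The DMSO reference adds the same constant to every compound and does not enter r. Without LAQ824 and OJI-1, the compounds farthest from the PAX3 median, r was 0.84 (n = 18, permutation p = 3e-05, adjusted 0.0003). Within the flow cell that held 14 compounds r was 0.77 (permutation p = 0.00119, adjusted 0.00595). With changes centred on their flow cell r was 0.87. With median-ratio scaling r was 0.88 and rho was lower, at 0.65 (permutation p = 0.00238, adjusted 0.0119). Leaving out LAQ824 alone gave 0.75, the lowest of 20 such values, and leaving out OJI-1 gave 0.94, the highest. Without LAQ824 and WT161, a choice made after seeing the data, r was 0.71 (n = 18, permutation p = 0.00085, adjusted 0.0085).

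The relatives were not all independent of the pair. PAX3 was also correlated with PAX7 (r = 0.78, permutation p = 0.00011, adjusted 0.00055) and with FOXO3 (r = 0.75, permutation p = 0.0004, adjusted 0.001). FOXO1 was correlated with FOXO3 (r = 0.78, permutation p = 0.00019, adjusted 0.000633) and PAX7 (r = 0.72, permutation p = 0.00088, adjusted 0.00176), the latter with rho of 0.40 (permutation p = 0.0853, adjusted 0.142). FOXO4 ran the other way or not at all, at -0.31 with PAX3 (permutation p = 0.187, adjusted 0.187) and -0.36 with FOXO1 (permutation p = 0.118, adjusted 0.131). Whether r of PAX3 with FOXO1 exceeds the others was not tested. Without LAQ824 and WT161 the FOXO3 values were 0.47 with PAX3 and 0.49 with FOXO1 (permutation p = 0.0504 and 0.0409, both 0.126 after adjustment). Within the flow cell of 14 compounds, r of FOXO1 was 0.84 with FOXO3 and 0.77 with PAX3. With median-ratio scaling, rho of FOXO1 was 0.75 with FOXO3 and 0.65 with PAX3, whereas r was 0.78 and 0.88.

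**Figure D2:**
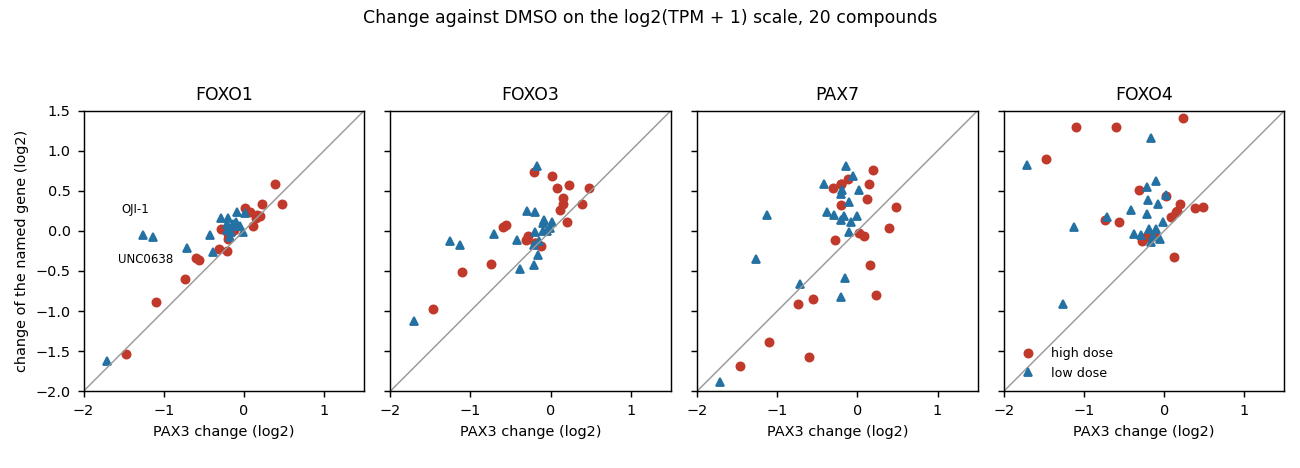
Change of FOXO1, FOXO3, PAX7 and FOXO4 (vertical axes) against that of PAX3 (horizontal axis), both relative to DMSO on the log2(TPM + 1) scale, for 20 compounds at high (circles) and low (triangles) dose. Points on the grey diagonal have equal changes. High-dose FOXO1 points all lie within 0.3 of the diagonal, and the low doses of OJI-1 and UNC0638 lie far to its left.

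The main comparison of gaps, over the means of the doses, is given in the next paragraph, and in it no comparison against DMSO passed. The high dose alone, given first, was an alternative setting. PAX7 did not enter the comparisons of gaps. At high doses PAX3 and FOXO1 stayed within 0.30 of each other for all 20 compounds, with a median gap of 0.13 (log2). The mean gap was 0.13 ± 0.08 (SD, n = 20), against 0.32 ± 0.26 between PAX3 and FOXO3 and 0.28 ± 0.22 between FOXO1 and FOXO3. The pair was closer than PAX3 to FOXO3 in 14 of 20 compounds (permutation by sign flips, two-sided p = 0.00233, adjusted 0.00325) and closer than FOXO1 to FOXO3 in 17 of 20 (permutation p = 0.00203, adjusted 0.00325). It was closer than PAX3 to FOXO4 in 15 (permutation p = 0.00244, adjusted 0.00325) and than FOXO1 to FOXO4 in 13 (permutation p = 0.00819, adjusted 0.00819). PAX3 and FOXO1 had the same sign in 18 of 20 compounds, and PAX3 and FOXO3 in 17. At the low dose these counts were 10 and 13 of 20, and over the means of the doses 14 and 14. Agreement in sign thus did not set the fused pair apart from PAX3 and FOXO3. All compounds share the DMSO samples of their dose, so an error in that reference enters every gap, and the permutation treats compounds as independent. PAX3 lay below FOXO1 in 15 of 20 compounds at the high dose and in 19 of 20 at the low dose, with PAX3 in DMSO at 39.0 TPM for the high and 43.5 TPM for the low doses. With each gene's changes centred on their median over compounds, which removes the reference and was chosen after seeing the data, the high-dose differences were -0.12 and -0.49 from PAX3 to FOXO3 and FOXO4 (adjusted permutation p = 0.0109 and 8e-05). From FOXO1 they were -0.14 and -0.45 (adjusted permutation p = 0.00711 and 0.00052).

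Over the means of the doses, none of the 4 comparisons of gaps against DMSO passed. The mean gap of PAX3 to FOXO1 was 0.22 ± 0.18, against 0.30 ± 0.28 to FOXO3 (difference -0.09 ± 0.06 SE, permutation p = 0.151, adjusted 0.202) and 0.58 ± 0.66 to FOXO4 (-0.36 ± 0.15, permutation p = 0.0129, adjusted 0.0518). The gap of FOXO1 to PAX3 minus that to FOXO3 did not pass either (0.04 ± 0.07, permutation p = 0.607, adjusted 0.607). For FOXO1 to PAX3 against FOXO1 to FOXO4 the difference was -0.24 ± 0.15 (permutation p = 0.102, adjusted 0.202). At low doses the gap of the pair was 0.32 ± 0.31 and none of the 4 comparisons passed either. Within the flow cell of 14 compounds, FOXO1 lay closer to FOXO3 than to PAX3 (0.14 ± 0.05, permutation p = 0.00168, adjusted 0.00672). After the same centring, 3 of the 4 comparisons passed over the means of the doses, the exception being FOXO1 to FOXO3 (-0.03, adjusted permutation p = 0.556). At low doses PAX3 to FOXO3 alone passed after centring (-0.12, adjusted permutation p = 0.00984), so these calls depend on the reference. The difference between doses was not tested.

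**Figure D3:**
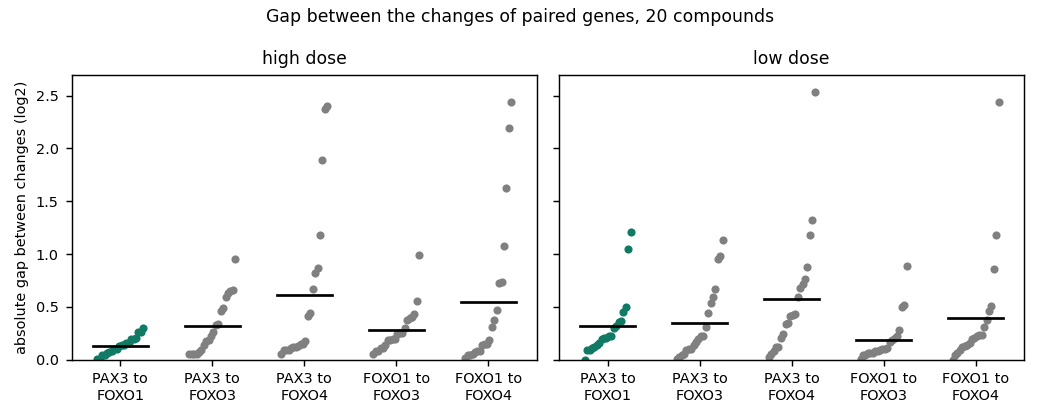
Absolute gap between the log2 changes of 2 genes (vertical axis) for 20 compounds at the high dose (left) and the low dose (right); each point is a compound, sorted within a pair, and black lines are means. At the high dose the gap of PAX3 to FOXO1 (green) averages 0.13 and stays at or under 0.3, and at the low dose OJI-1 and UNC0638 exceed 1.

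At low doses 18 of 20 compounds had a gap of at most 0.5, and the wider gaps came from 2 samples. PAX3 stood at 17.6 TPM under OJI-1 at 1 µM and at 19.3 TPM under UNC0638 at 1 µM, less than any DMSO sample. These rested on 161 and 162 reads, with exact Poisson 95% intervals of 15.0 to 20.5 and 16.4 to 22.5 TPM that cover counting error only. FOXO1 in the same samples was just below its lowest DMSO value, at 80.0 and 78.2 TPM. FOXO4 was also low under OJI-1 at 1 µM, at 3.72 TPM on 34 reads (-0.91, adjusted p = 0.184). The change of PAX3 was -1.26 (adjusted p = 0.0413) and -1.13 (adjusted p = 0.0911) for the low dose alone, under the same assumption on a single sample, and those of FOXO1 were -0.05 and -0.08. Of the genes averaging at least 5 TPM, 0.629% and 0.45% had a change this low or lower in the same sample. Both libraries were shallow, at 6895436 and 6508337 reads, whereas the shallowest library (PFI-2 at 1 µM, 5737939 reads) had PAX3 at 39.5 TPM. CCDC140 was not low in them, at 4.53 and 4.93 TPM. The part of depth in these values was not tested. With both compounds represented by their high dose, r of PAX3 with FOXO1 was 0.96 (permutation p = 1e-05, adjusted 0.0001) and the gap to FOXO4 passed (-0.40, adjusted permutation p = 0.0165).

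Acetylation-axis compounds gave lower values than methylation-axis compounds for 4 of the 5 genes, but none of these differences passed. The mean change of PAX3 was -0.60 ± 0.53 over 7 acetylation compounds and -0.09 ± 0.18 over 11 methylation compounds (SD). The difference was -0.51 ± 0.16 (SE, limma on compound means, adjusted p = 0.0677). It was -0.43 ± 0.18 for FOXO1 (adjusted p = 0.116), -0.85 ± 0.25 for PAX7 (adjusted p = 0.0604), -0.50 ± 0.16 for FOXO3 (adjusted p = 0.0647) and 0.26 ± 0.20 for FOXO4 (adjusted p = 0.371). No gene of 16359 was called (0.0%), although 5018 had an unadjusted p under 0.05. With median-ratio scaling 757 genes passed, PAX7 among them (adjusted p = 0.0488). With the flow cell as a covariate the PAX3 difference was -0.30 (adjusted p = 0.456) and the FOXO1 difference -0.24 (adjusted p = 0.548). Without LAQ824 they were -0.34 and -0.22. PFI-3, although it also targets bromodomains, and trametinib were placed on neither axis and did not enter this comparison. Their changes were 0.01 and -0.63 for PAX3 and 0.06 and -0.29 for FOXO1, and another placing was not tested.

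The step from low to high dose was not shown to differ between the axes. Acetylation minus methylation compounds, the step was -0.26 ± 0.22 for PAX3 (limma adjusted p = 0.564) and -0.25 ± 0.13 for FOXO1 (adjusted p = 0.331). The values were -0.21 ± 0.23 for PAX7, -0.11 ± 0.12 for FOXO3 and 0.18 ± 0.19 for FOXO4. No gene was called (0.0%), and 2747 had an unadjusted p under 0.05.

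Under N1302, set against 1 DMSO sample of the RH4-titled series, PAX3 was lower by more than FOXO1, with no replicate check. PAX3 went from 12.4 TPM (418 reads, exact Poisson 95% interval 11.2 to 13.6) to 1.19 TPM (28 reads, 0.788 to 1.71). FOXO1 went from 51.1 TPM (49.3 to 53.0) to 13.4 TPM (12.3 to 14.6). The changes were -2.61 and -1.85 on the log2(TPM + 1) scale, and the TPM fell to 0.0957 and 0.262 of solvent. The ratio of FOXO1 to PAX3 was 11.3, against 4.13 in its DMSO sample and 1.87 to 4.55 in the screen. PAX7 went from 5.77 to 1.1 TPM, FOXO3 from 24.9 to 9.32 TPM and FOXO4 from 14.7 to 20.9 TPM, so FOXO4 again stood higher. Of 11121 genes averaging at least 5 TPM, 25.1% were at least 1 lower on this scale and 10.1% at least 1 higher. Scaling by the median ratio raised the N1302 changes of all 5 genes, giving -2.43 for PAX3 and -1.49 for FOXO1.

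In the entinostat series both fused genes changed by less than 1 on the log2 scale, and at 24 h PAX3 alone stood higher. PAX3 stood at 21, 18.3 and 27.2 TPM at 1, 6 and 24 h, against 21.7, 22.2 and 21.1 TPM in DMSO. FOXO1 stood at 52.2, 46.0 and 56.7 TPM against 49.6, 53.4 and 56.4 TPM. The changes at 6 h were -0.26 for PAX3 and -0.21 for FOXO1, and at 24 h 0.35 and 0.01. The other RH4-titled DMSO sample of 6 h belongs to the N1302 pair, with PAX3 at 12.4 TPM. Against both the PAX3 change at 6 h was 0.13, so its sign turns only with a control from another experiment. PAX7 fell short of its DMSO value by 0.57 at 6 h and by 0.93 at 24 h (changes of -0.57 and -0.93). FOXO3 changed by 0.20 and -0.65, and FOXO4 by 0.29 and -0.16. No change of the 5 genes reached 1, and each time point rests on 1 sample. At 24 h 7.42% of genes were at least 1 lower and 10.9% at least 1 higher.

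**Figure D4:**
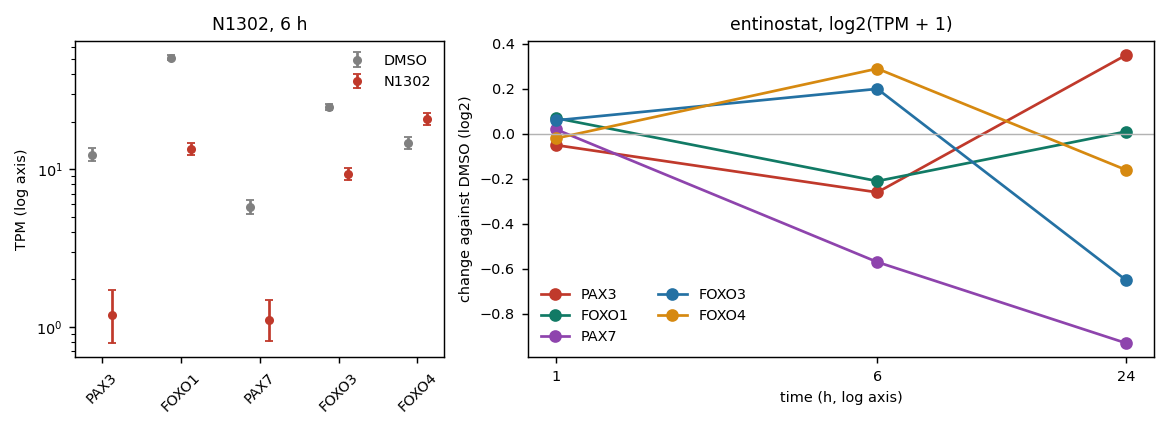
Left, TPM (log axis) of the 5 genes in DMSO and after N1302 for 6 h, with exact Poisson 95% intervals from read counts. Right, change against DMSO (log2 of TPM + 1) after entinostat for 1, 6 and 24 h; each point is 1 sample. PAX3 falls to 1.19 TPM under N1302 and lies 0.35 above DMSO at 24 h of entinostat, while PAX7 lies 0.93 below.

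Control levels differed between the series. In RH4-titled DMSO PAX3 stood at 12.4 TPM in the N1302 pair and 21.1 to 22.2 TPM in the time course, below the screen's 38.6 to 43.9 TPM, and FOXO4 at 14.7 and 22.5 to 33.2 TPM, above the screen. CCDC140 stood at 11.3 and 23.5 to 27.9 TPM. The part of title, experiment and library preparation in these levels was not tested.

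The genes whose changes over 20 compounds were most like those of PAX3, among 11120 genes averaging at least 5 TPM, were AMOTL1 (r = 0.90), DVL3 (0.90), FOXO1 (0.89), MYC (0.88) and DOCK1 (0.88). FOXO1 ranked 3, PAX7 223, FOXO3 403 and FOXO4 8334. Without LAQ824, FOXO1 ranked 12 by its likeness to PAX3 (r = 0.75, 19 compounds). The genes most like FOXO1 were CCND2 (r = 0.96), WEE1 (0.95), GAS1 (0.95), TGIF1 (0.95) and VGLL3 (0.95), and PAX3 ranked 59, with FOXO3 at 619 and PAX7 at 1201. These are descriptions over shared samples, with no test.

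Neighbours of the pair on the chromosome are given for LAQ824, under which 60.5% of all genes were called. Within 500 kb of PAX3 lay 5 other genes, of which 3 were called: LOC440934 fell by 1.05 ± 0.23 (adjusted p = 0.000376), and SGPP2 and MOGAT1 rose by 0.83 and 0.93 from low levels of 1 and 0.0559 TPM in DMSO. CCDC140 changed by -0.52 (adjusted p = 0.11). Within 500 kb of FOXO1 lay 14 other genes, 9 of them tested and 4 called. SLC25A15, a mitochondrial ornithine carrier, fell by 1.58 (adjusted p = 5e-08) and ELF1, an ETS factor, fell by 1.27 (adjusted p = 1.93e-07), while MRPS31 rose by 0.48 (adjusted p = 0.0184) and TPTE2P5 rose by 1.02 (adjusted p = 1.98e-05). TPTE2P5 stood at only 0.361 TPM in DMSO and overlaps SLC25A15 in position, so reads may be shared between them. The r with FOXO1 over compounds was 0.80 for SLC25A15 and 0.84 for ELF1, and that with PAX3 was 0.67 for CCDC140.

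The list of genes bound or induced by PAX3-FOXO1, like the lists below, was chosen with earlier results of these data known. Its counts are therefore descriptions and not a test. Most of its tested genes were lower under LAQ824. There, 15 of 20 tested targets fell and 3 rose, against 28.1% of all genes called down and 32.4% called up, with a median change of -0.80 against 0.06 for all genes. FOXF1 went from 109 TPM to 4.58 and 4.08 TPM (-4.37 ± 0.41, adjusted p = 1.72e-09), and TFAP2B from 49.0 TPM to 1.99 and 1.85 TPM (-4.10 ± 0.53, adjusted p = 2.99e-07). MYOG, a myogenic factor, fell by 3.5 and PIPOX, an oxidase of pipecolic acid, fell by 3.42. The same list had 12 of 20 down under WT161, 10 down and 1 up under bromosporin, 11 down under SGC-CBP30 and 4 down under UNC0638, against 18.8%, 29.5%, 6.11% and 18.9% of all genes.

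Of a list of muscle progenitor factors linked to PAX3, 7 of 10 tested fell under LAQ824 and none rose. The median change of the list was -1.04, and 28.1% of all genes were called down. Where these factors stand relative to PAX3 was not tested. Those that fell included TEAD2 (-2.24 ± 0.26, limma adjusted p = 4.9e-08), LBX1 (-1.89) and MEOX1 (-1.80). The count was 5 down under WT161, 6 down and 1 up under bromosporin, 4 down under SGC-CBP30, and 3 down and 2 up under UNC0638, against 18.8%, 29.5%, 6.11% and 18.9% of all genes called down.

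Target genes of FOXO factors include genes of arrest and apoptosis. Under LAQ824, 10 of 21 tested rose and 3 fell, against 32.4% of all genes up and 28.1% down, with a median of 0.58 against 0.06. BCL6 rose from 4.44 TPM to 19.8 and 22.6 TPM (2.03 ± 0.37, adjusted p = 3.16e-05), SESN3 from 20 TPM to 73.8 and 65.1 TPM (1.74 ± 0.27, adjusted p = 4.82e-06), and the pro-apoptotic BCL2L11 by 1.74. ERBB3, a receptor tyrosine kinase, fell by 1.82. The list had 11 up and 1 down under WT161, 11 up and 2 down under bromosporin, 2 up and 1 down under SGC-CBP30, and 6 up and 0 down under UNC0638, against 23.0%, 16.5%, 3.73% and 6.33% of all genes called up and 18.8%, 29.5%, 6.11% and 18.9% called down.

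Of the regulators of FOXO proteins, 5 of 18 rose and 6 fell under LAQ824, against 32.4% of all genes up and 28.1% down. SKP2, a ubiquitin ligase subunit, fell by 2.16 and the deubiquitinase USP7 by 1.87, whereas the AKT-activating kinase PDPK1 rose by 1.58 and STK4 by 1.21. Counts were 5 up and 5 down under WT161, 8 up and 6 down under bromosporin, and 2 up and 2 down each under SGC-CBP30 and UNC0638, beside the shares of all genes given for FOXO targets. The regulator list also held FOXO6, a forkhead relative rather than a regulator. It was counted as up under WT161 and as down under bromosporin and SGC-CBP30. Of the other PAX genes 3 of 7 passed the filter. Under LAQ824 PAX2 fell by 1.68 (5.56 TPM in DMSO) and PAX6 rose by 0.63 (1.17 TPM in DMSO). Under WT161, SGC-CBP30 and UNC0638 1 of the 3 rose, and under bromosporin and UNC0638 1 of the 3 fell, beside the same shares of all genes.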

How the data were processed

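The paper names STAR 2.5.3a for aligning poly-A RNA-seq to hg19 and RSEM 1.3.0 for quantification. The deposited values are gene-level TPM, 1 column per sample. The TPM steps returned whole reads for 100.0% of 23645 genes above 0 TPM (tolerance 0.05 reads), which gave the read counts. RSEM can divide a read between genes, and no such fractions were seen, so the counting behind these TPM is not certain. Depth was 5737939 to 41415071 reads and limits precision most for PAX7 and FOXO4 within the screen and for PAX3 under N1302, and intervals cover counting error only. No column of per-sample values was left out.

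Changes are differences of log2(TPM + 1). Genes with at least 1 TPM in 2 or more samples (16359) entered limma 3.58.1 in R 4.3.3 (lmFit, eBayes with trend, Benjamini-Hochberg over all genes, threshold 0.05), with a term per compound over 44 screen samples. Fits were tested on simulated data for LAQ824 over 16359 genes. Called were 100 of 100 genes changed 4-fold, 76 of 100 changed 2-fold and 6 unchanged genes. The simulated samples were independent, with the same dispersion for all genes and no flow cell effect, so these rates may not carry over to the data. Correlations and gaps used two-sided permutation tests with 100000 resamples over compounds (numpy 2.4.6, scipy 1.17.1), adjusted over 10 pairs and 4 gaps. The members and lists were chosen with earlier results of these data known.

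Genes named were the 5 members in every sample, the 5 genes most correlated with PAX3 and with FOXO1 over compounds, genes within 500 kb of either, and up to 4 genes of each list with the largest called change under LAQ824, of which 1 is not reported here. LOC440934, SGPP2 and MOGAT1 come from the 500 kb rule. Same-numbered DMSO samples share a flow cell by the headers, and their deviations correlated at 0.26 over 10601 genes, so the number was also fitted as a block. Alternatives were another pseudocount, filter, scaling, reference or dose, voom on the recovered reads, and leaving out each DMSO sample or compound. Exons came from GENCODE on GRCh37, and promoter windows from RefSeq on GRCh38.p14, with which no deposited coordinate was mixed.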

Additional observations from a re-analysis of the deposited data

How the results depend on the processing

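The count of 13 called pairs of gene and compound was 6 with the low dose alone and 38 when each compound was fitted with only the DMSO samples. It ranged from 11 to 12 without one DMSO sample each and was 10 with DMSO samples of one concentration averaged (chosen after seeing the data) and 14 with voom on the recovered reads. Median-ratio scaling, which gave 14, moved all genes by 0.15 for bromosporin and UNC0638, -0.16 for MC1568 and -0.12 for GSKLSD1 (log2). The shares of all genes called per compound at these alternative settings are not given. Compounds set against other compounds of their flow cell gave 9 calls, against 7 with DMSO as reference. The cause was not tested. The block on replicate number left the DMSO comparison at 0 genes called, as did leaving out each DMSO sample (0 to 0), with 1768 genes at an unadjusted p under 0.05. The correlation of PAX3 with FOXO1 ran from 0.75 to 0.94 without one compound each and passed in all 20 fits. Without one compound each, the gap differences ran from -0.10 to -0.04 for PAX3 to FOXO3, from -0.40 to -0.25 for PAX3 to FOXO4 (passing in 6 of 20), from 0.01 to 0.09 for FOXO1 to FOXO3 and from -0.27 to -0.13 for FOXO1 to FOXO4. The high dose alone gave -0.19, -0.48, -0.14 (reversed) and -0.42. Centred on the median over compounds (chosen after seeing the data), the values were -0.09, -0.33, -0.03 (reversed) and -0.31 over both doses, -0.12, -0.49, -0.14 (reversed) and -0.45 at the high dose, and -0.12 for PAX3 to FOXO3 at the low dose. With OJI-1 and UNC0638 by their high dose, the FOXO1 to FOXO3 value was -0.02, also reversed, and the PAX3 to FOXO4 value -0.40, and within the flow cell of 14 compounds the former was 0.14. The axis difference was -0.64 for PAX3 at the high dose (adjusted p = 0.0444), and for PAX7 -0.84 with median-ratio scaling and -0.85 at a mean of at least 5 TPM. The axis comparison called 0 genes, against 757, 761 and 1614 with median-ratio scaling, a mean of at least 5 TPM and the high dose. PAX3 passed without MC1568 or Merck60, FOXO1 without Merck60, and PAX7 and FOXO3 without MC1568, Merck60 or OJI-1. Without one compound each it ran from -0.63 to -0.34 for PAX3, -0.55 to -0.22 for FOXO1, -1.03 to -0.64 for PAX7, -0.58 to -0.37 for FOXO3 and 0.13 to 0.43 for FOXO4, and the dose step from -0.42 to -0.10, -0.34 to -0.14, -0.31 to -0.08, -0.17 to -0.06 and 0.10 to 0.30 in the same order. N1302 gave -3.28 for PAX3 with a pseudocount of 0.1 and -1.49 for FOXO1 with median-ratio scaling. Entinostat at 6 h gave 0.13 for PAX3 when the DMSO sample of the N1302 pair was added to its reference, which turned its sign. FOXO1 ranked 12 by likeness to PAX3 without LAQ824. With 1 sample per dose, 28 reads for PAX3 under N1302 and most compounds on flow cells without DMSO, precision is limited, and compound and flow cell cannot be told apart for those compounds.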

Other observations

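Related genes outside the 5 varied in ways of their own. FOXO6, a further forkhead relative, stood at 26.3 ± 3.51 TPM in screen DMSO (SD, n = 2) and between 5.59 and 52.1 TPM in treated screen samples. FOXO3B, the near-identical copy of FOXO3, went from 10.9 to 1.9 TPM under N1302, on 794 and 97 reads, while FOXO3 went from 24.9 to 9.32 TPM. CCDC140, whose start overlaps that of PAX3, changed apart from it in the entinostat series. It stood at 29.6, 13.7 and 5.93 TPM at 1, 6 and 24 h, against 27.9, 23.5 and 24.3 TPM in DMSO, a change of -1.87 at 24 h, when PAX3 was 0.35 above its DMSO value. Under N1302 it went from 11.3 TPM on 193 reads to 0.167 TPM on 2 reads. These series have 1 sample per condition, and no test was run.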
